A study of Mus musculus with 8 samples.

Results

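The expressed long non-coding RNAs (lncRNAs) of the liver were described in 18-month-old obese female C57BL/6J mice fed with or without docosahexaenoic acid (DHA), an n-3 fatty acid of fish oil. Genes were chosen by their GENCODE type, lncRNA, and by their level, a mean over the 8 libraries of at least 5 CPM (counts of the gene per 1000000 counts of the library). This rule left 206 of 11150 lncRNA genes, of which 3594 had any count, in tables of 56884 genes. Because the genes were selected on their mean level over both groups, the levels below are a description, and for genes near the limit the rule also bears on the difference between the diets.

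From 2 months of age all mice ate, for 4 months, a fat-rich diet in which lipids made up 45% of the energy, and they were then split. The DIO (diet-induced obese) group, 3 libraries, stayed on that diet until 18 months. For the DIO + DHA group, 5 libraries, a DHA-rich fish oil concentrate took the place of 15% (by weight) of the lipids in the diet up to the same age. Each library was made from the liver of 1 mouse, poly(A) RNA was copied from an oligo(dT) primer, and the reads are enriched in 3′ ends. The livers were taken after an overnight fast. The groups share the obese background, and a lean group was not analysed here.

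LncRNAs are transcripts that resemble mRNAs in being transcribed by RNA polymerase II and, in most cases, spliced, but that are not known to encode long proteins. Some act in the nucleus, such as Xist, which coats the inactive X chromosome, or Neat1, the scaffold of paraspeckles. Others are hosts of small nucleolar RNAs (snoRNAs) or microRNAs, and many lie on the strand opposite to a protein-coding gene.

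Library totals ranged from 1723800 counts, in DIO replicate 1, to 5690347, with a median of 4495644. Summed CPM of 13 hepatocyte markers was 123888 to 126189 in the DIO libraries and 127310 to 133231 in the DIO + DHA libraries, but gene by gene 3 of them rose and 4 fell, with a median log2 fold change of 0.01. Summed levels of markers of other tissues and cells differed between the groups as well. The 25 skeletal muscle markers summed to 51.0 to 58.1 CPM against 1526 to 1716 CPM, and each of them was higher in DIO + DHA, 3 of them having no count in the DIO libraries. The 9 adipocyte markers summed to 36.0 to 41.3 CPM against 138 to 159 CPM. The 8 smooth muscle markers summed to 6.15 to 11.04 CPM against 26.3 to 44.7 CPM. The largest part of the DIO + DHA sum was Des, at a mean of 1.54 CPM in DIO and 16.8 CPM in DIO + DHA. Of 6 tested smooth muscle markers 4 were higher, and Myh11 and Tagln did not pass. The 15 squamous epithelium markers summed to 217 to 238 CPM against 337 to 354 CPM. Most of the squamous sum in DIO came from Perp (mean 160 CPM), Ly6d (41.7 CPM) and Dsp (26.4 CPM). In DIO + DHA these genes were at 188, 50.4 and 27.3 CPM. Of the 15, 8 had no count in the DIO libraries, with Crnn among them at 0 in all libraries. Mean Krt13 went from 0 CPM in DIO to 15.6 CPM in DIO + DHA, and Krtdap from 0.550 to 27.9 CPM. The summed CPM of the 19 macrophage and Kupffer cell markers was lower in DIO + DHA, at 606 to 620 CPM against 1103 to 1179 CPM. That of the 18 T, NK and B cell markers was lower too (237 to 272 CPM against 342 to 375 CPM). Within the latter, Ccl5 went from a mean of 104 CPM in DIO to 32.7 CPM in DIO + DHA. The B lineage genes Igkc (130 and 124 CPM), Ighm (67.7 and 65.9 CPM), Jchain and Cd79b did not pass the gene-by-gene test. Sinusoidal endothelial markers summed to 245 to 284 CPM against 180 to 203 CPM in DIO + DHA, and stellate cell markers to 265 to 299 CPM against 242 to 255 CPM. Gene by gene, 3 of 10 sinusoidal endothelial markers fell and 7 did not pass. Of 9 stellate cell markers 2 fell, 1 (Des, also on the smooth muscle list) rose and 6 did not pass. Among those 6 was Dcn, most of the stellate sum at 205 CPM in DIO and 179 CPM in DIO + DHA. The exact two-sided permutation p was 0.0179 for each of these sums except that of hepatocyte markers (0.0357), and 0.714 for cholangiocyte markers. A p of 0.0179 is the smallest that 3 against 5 libraries allow, and after Benjamini-Hochberg adjustment over 10 lists it becomes 0.0223 (0.0397 for hepatocyte markers). Since the lists were chosen with earlier results of these data known, these p-values describe the sums and are not independent tests. In bulk tissue, fewer cells of a type and less RNA per cell cannot be told apart.

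Because the primer anneals to poly(A), the counts come mostly from the last part of a transcript. The 30 bases below, read from GRCm39 at or near the annotated 3′ end, are shown for the lncRNAs on which the results turn. Capitals mark the polyadenylation signal hexamer AATAAA nearest the end, where the last 50 bases hold AATAAA or ATTAAA, and a window with no capitals is the last 30 bases of a gene without either hexamer.
AW112010 (chr19:11021557-11021586, minus strand): atagaaataaataaaattttcataAATAAA
Gm15441 (chr3:96463084-96463113, minus strand): agagacacccaaAATAAAaaatttaaatgt
H19 (chr7:142129270-142129299, minus strand): cctgggtccatcAATAAAtacagttacagt
3930402G23Rik (chr8:10974427-10974456, minus strand): attcacataggactaaattctgtgatgagc
4833411C07Rik (chr8:10973582-10973611, plus strand): gaacgaAATAAAcaggaagtggatgcagtc
B930025P03Rik (chr8:10920422-10920451, minus strand): tggataacaatatgccAATAAAattattgt
Malat1 (chr19:5845722-5845751, minus strand): ttgattttatgaAATAAAaactaaatatct
Neat1 (chr19:5874736-5874765, minus strand): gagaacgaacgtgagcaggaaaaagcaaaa

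Of the 206 lncRNAs, 144 (69.9%) had AATAAA or ATTAAA in their last 50 annotated bases, as did 79.0% of the tested protein-coding genes and 65.7% of the tested lncRNAs below 5 CPM. The E-box CACGTG, searched on both strands from 250 bases before to 50 after the annotated start, was found in 10.7% of the lncRNA promoters and in 9.98% of those of tested protein-coding genes. A direct repeat of AGGTCA with 1 base between the copies, the form to which PPAR and RXR bind, was found in 0 of the 206 windows and in 0.0444% of those of protein-coding genes. At a share of 0.0444%, a set of 206 windows would be likely to hold 0. Only exact copies of the repeat were searched, so the 0 does not show that sites for PPAR are absent. These are matches of letters in a window, and binding was not measured.

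The lncRNAs were a small and uneven part of the libraries. Together they took 0.579% to 0.584% of all counts in the DIO libraries and 0.539% to 0.560% in the DIO + DHA libraries. The nuclear lncRNA Malat1 alone held 14.4% of the counts of the 206 genes and the 5 most abundant (Malat1, AW112010, 0610005C13Rik, Gm67972 and Neat1) held 32.6%. The median of the mean levels was 10.7 CPM, 58 genes reached 20 CPM, and 9 reached 100 CPM. CPM was not divided by gene length, since reads come from 3′ ends, so an order of levels is an order of counts. At the lower edge of the rule, 5033406O09Rik (5.003 CPM) and Gata6os (5.03 CPM) lay just inside, while D930048N14Rik (4.93 CPM) and 2900052L18Rik (4.92 CPM) lay just outside. Most genes carry only provisional names, with 91 Gm gene models and 61 Riken clones, beside 20 named for a gene on the opposite strand.

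The diets were then compared gene by gene. In the edgeR quasi-likelihood test, Benjamini-Hochberg adjusted over all 12412 genes tested, 49 of the 206 lncRNAs (23.8%) had an adjusted p under 0.05, against 15.2% of all genes tested and 18.1% of the protein-coding genes of at least 5 CPM. Of the 49, 30 were higher in DIO + DHA (14.6% of the lncRNAs, against 7.89% of all genes and 8.93% of those protein-coding genes) and 19 were lower (9.22%, against 7.28% and 9.18%). The libraries of the groups did not overlap in CPM for 57 lncRNAs (27.7%, against 18.7% of all genes and 21.7% of the protein-coding ones), 42 of which were among those called. The median log2 fold change of the 206 genes was 0.06, close to that of all genes tested, 0.00. A change of over 1 on the log2 scale together with an adjusted p under 0.05 was found for 11 lncRNAs, 9 higher and 2 lower (5.34%, against 4.48% of all genes and 2.55% of the protein-coding ones). The shares of higher genes include 10 lncRNAs, H19, 3930402G23Rik and B930025P03Rik among them, whose DIO mean lay below 5 CPM and which met the level rule through the DIO + DHA libraries, so they cannot be read apart from that rule.

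**Figure D1:**
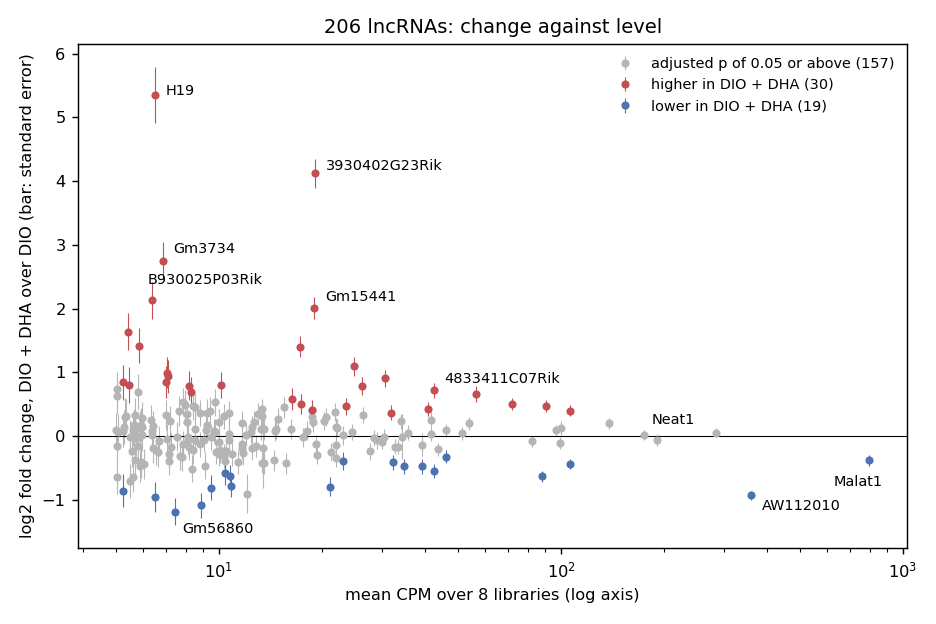
Log2 fold change of the 206 lncRNAs (DIO + DHA over DIO, vertical axis, bars for the standard error) against their mean CPM over the 8 libraries (horizontal log axis). Red points are the 30 higher lncRNAs, blue points the 19 lower ones and grey points the 157 that did not pass the test, with the largest rises among genes below 20 CPM and the abundant AW112010 and Malat1 among the lower ones.

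Calls were more frequent among the more abundant genes. Of the 58 lncRNAs at 20 CPM or above, 22 were called (37.9%), with a median standard error of 0.12 on the log2 scale, and of the 148 below 20 CPM, 27 were called (18.2%), with a median standard error of 0.21. Among the 534 tested lncRNAs below 5 CPM the share was 7.49%. The level rule also acts on the change. The DIO mean was below 5 CPM for 16 of the 206 genes, which entered through their DIO + DHA level (10 of them higher), and the DIO + DHA mean was below 5 CPM for 9 (3 of them lower). The remaining 181 had both means at 5 CPM or above, and 20 of these were higher and 16 lower, 19.9% in all.

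The largest rise was that of H19, an imprinted lncRNA that is abundant in fetal liver and in muscle and that hosts Mir675. H19 (ENSMUSG00000000031.19, chromosome 7, 142129262 to 142131917) was at 0, 0.181 and 0.351 CPM in DIO replicates 1, 4 and 5, and at 13.97, 9.48, 8.08, 8.99 and 10.9 CPM in DIO + DHA replicates 1, 2, 4, 5 and 6. The groups were far apart, with the DIO libraries close to no reads. The 3 DIO libraries held 3 counts and the 5 DIO + DHA libraries 212, a ratio of 46.0 for equal depth, with a 95% interval for counting error of 15.5 to 225 (exact). The fitted log2 fold change, which at so few counts depends on the prior count, was 5.35 (standard error 0.44, adjusted p = 6.68e-15, Benjamini-Hochberg adjusted edgeR quasi-likelihood test).

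Muscle genes around H19 were higher in the same libraries. Tnnt3, a troponin of fast skeletal muscle that lies 59.5 kb away, was at 4.41 CPM in DIO and 195 CPM in DIO + DHA (log2 fold change 5.33), and Tnni2, another one at 131 kb, changed by 4.98. Lsp1, a gene of leukocytes that lies between them, fell from 11.1 to 7.35 CPM (log2 fold change -0.66, adjusted p = 0.0229 in the edgeR test). The nearest protein-coding gene, Mrpl23, which encodes a protein of the mitochondrial ribosome and lies 34.8 kb away, was at 7.33 and 9.15 CPM (log2 fold change 0.36, adjusted p = 0.271 in the same edgeR test). Nctc1, a lncRNA between Mrpl23 and H19, had 0 counts in the DIO libraries and 14 in the others, too few to be tested. Each of the 25 muscle markers rose in those libraries. Their part in the H19 level was not tested.

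**Figure D2:**
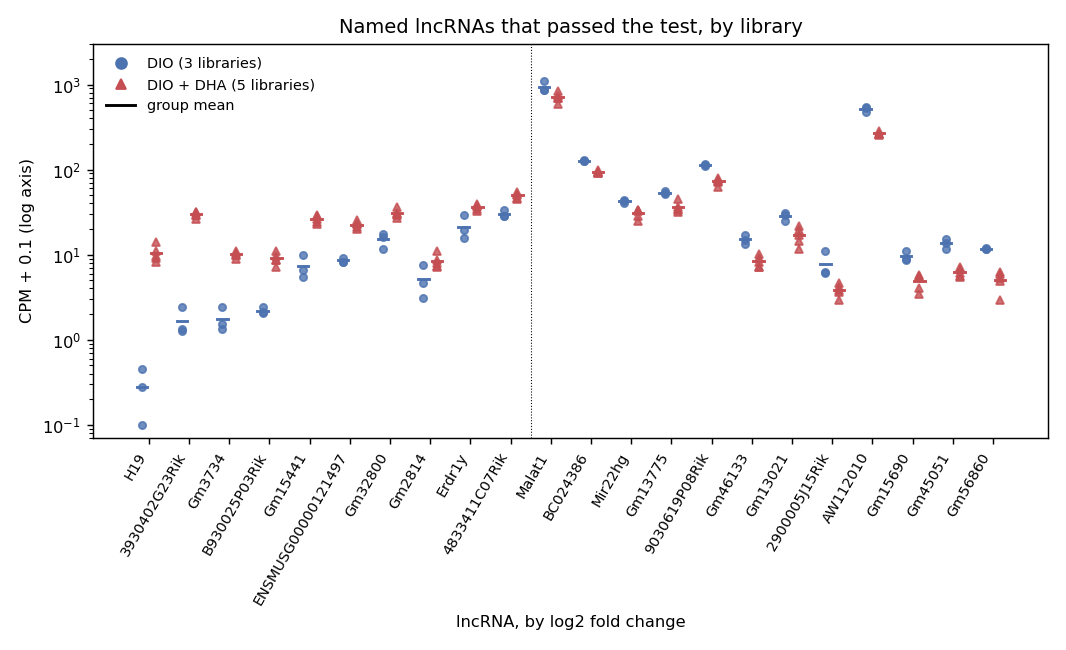
CPM plus 0.1 (log axis) of the 22 lncRNAs described by name that passed the test, 10 higher on the left of the dotted line and 12 lower on the right, ordered by log2 fold change. Blue circles are the 3 DIO libraries, red triangles the 5 DIO + DHA libraries and short lines the group means, and only Gm2814 shows overlapping groups.

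The second largest rise belonged to 3930402G23Rik (ENSMUSG00000038917.6), which was barely detected on the DIO diet. Its levels were 1.16, 2.35 and 1.23 CPM in the DIO libraries and 28.9, 26.1, 29.2, 31.9 and 31.7 CPM in DIO + DHA replicates 1, 2, 4, 5 and 6. All DIO + DHA libraries were far above the highest DIO library, and they differed little among themselves. The means were 1.58 ± 0.669 CPM (SD, n = 3) in DIO and 29.6 ± 2.39 CPM (SD, n = 5) in DIO + DHA, which gave a log2 fold change of 4.12 with a standard error of 0.23 (adjusted p = 4.28e-22, edgeR quasi-likelihood F test, Benjamini-Hochberg). The gene lies on the minus strand of chromosome 8 (10974427 to 10978696), shares no exon base with another gene, and its nearest protein-coding gene is Irs2.

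Irs2 encodes insulin receptor substrate 2, an adaptor between the insulin receptor and PI3-kinase that is prominent in liver. Beyond its 3′ end, a stretch of lncRNA genes was higher in DIO + DHA; the stretch was singled out after its values were seen. Between 56.0 and 114 kb from the annotated end of Irs2 lay 4 of the 206 lncRNAs, 3930402G23Rik, 4833411C07Rik, Gm2814 and B930025P03Rik. Each of them passed the test, as did 15.2% of all genes tested. The DIO means of 3930402G23Rik and B930025P03Rik were 1.58 and 2.08 CPM, so these genes met the level rule through the DIO + DHA libraries. The tally cannot be read apart from that rule.

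4833411C07Rik, the most abundant of them and the one on the plus strand (10949871 to 10973631), was at 28.4, 33.8 and 28.6 CPM in the DIO libraries and at 53.7, 52.2, 46.7, 45.4 and 50.6 CPM in the DIO + DHA libraries. The groups did not overlap, and the log2 fold change was 0.72 (standard error 0.11). Its 3′ end faces that of 3930402G23Rik, so the transcripts run towards each other. The 2 ends lie 61.05 and 60.25 kb from the end of Irs2. Because counting was unstranded, reads of these genes were assigned by position only, and whether reads of one were counted in the other was not tested.

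B930025P03Rik (10920422 to 10932454, minus strand) was at 2.32, 1.99 and 1.93 CPM in the DIO libraries and at 7.09, 8.47, 10.9, 8.52 and 9.65 CPM in the DIO + DHA libraries, a log2 fold change of 2.13 (standard error 0.28). Again the lowest DIO + DHA library exceeded the highest DIO library. Gm2814 (10948161 to 10950604, minus strand), which shares 16.5% of its exon bases with 4833411C07Rik on the opposite strand, was at 7.54, 4.53 and 2.99 CPM against 7.87, 7.11, 10.9, 8.52 and 7.35 CPM. Its groups overlapped, with DIO replicate 1 as high as the DIO + DHA libraries, and the log2 fold change was 0.94 (standard error 0.25, adjusted p = 0.00569 in the edgeR test). Without DIO replicate 5 the Gm2814 value was 0.66 and did not pass (adjusted p = 0.151).

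Below the 5 CPM level, Gm45044, between Gm2814 and B930025P03Rik, was also higher (0.417 against 2.20 CPM, log2 fold change 1.94, adjusted p = 0.0117 in the edgeR test), and Gm32540, further out, had too few counts to be tested. Irs2 itself was at 13.3, 9.23 and 9.84 CPM in the DIO libraries and 18.5, 17.6, 9.49, 14.9 and 16.2 CPM in the DIO + DHA libraries. The Irs2 groups overlapped through DIO + DHA replicate 4, and the log2 fold change was 0.63 (standard error 0.18, adjusted p = 0.0115). Nearer to Irs2 than these lncRNAs, Gm44956, at 13.9 to 21.7 kb from its end, had 2 counts in all libraries together and was not tested. Along the stretch the log2 fold change thus did not follow distance. It was 4.12 in the tested lncRNA closest to Irs2, 0.72 and 0.94 in the next ones and 1.94 and 2.13 in the farthest tested.

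**Figure D3:**
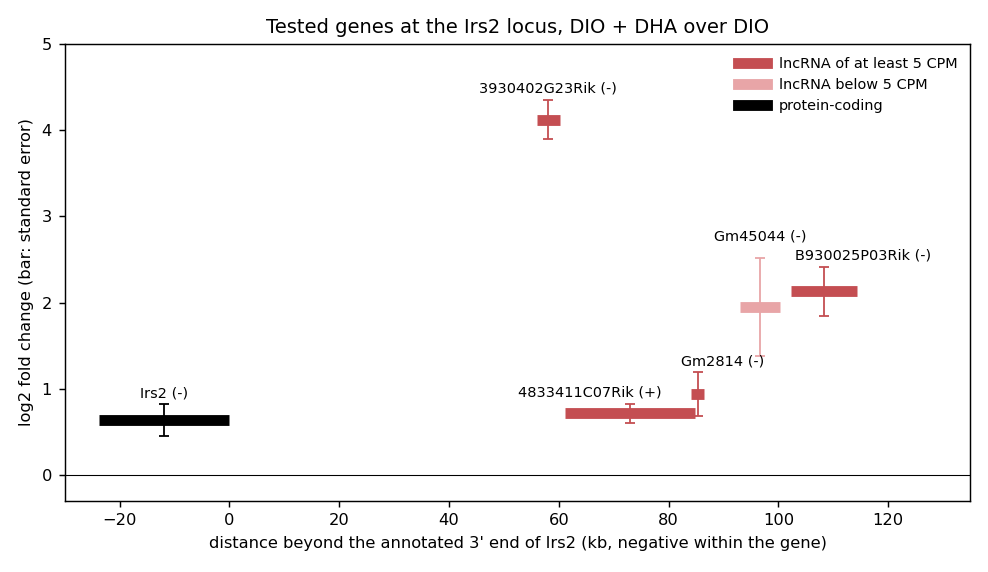
Tested genes from Irs2 to 114 kb beyond its 3′ end, each drawn over its annotated extent (horizontal axis, kb from the end of Irs2) at its log2 fold change, DIO + DHA over DIO (vertical axis, bars for the standard error). Irs2 in black lies at 0.63, the 4 lncRNAs of at least 5 CPM in red between 0.72 and 4.12, and Gm45044, in pale red, at 1.94.

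Gm15441, a liver lncRNA known as a target of PPAR alpha, the fatty acid-activated receptor, is transcribed antisense to Txnip, a brake on glucose uptake. It was at 9.86, 5.43 and 6.50 CPM in the DIO libraries and at 28.3, 23.03, 23.9, 28.9 and 26.2 CPM in the DIO + DHA libraries. The DIO + DHA libraries lay in a narrow range, well above each DIO library. The means were 7.26 ± 2.31 CPM (SD, n = 3) in DIO and 26.1 ± 2.60 CPM (SD, n = 5) in DIO + DHA, which gave a log2 fold change of 2.01 with a standard error of 0.18 (adjusted p = 5.83e-14, Benjamini-Hochberg adjusted edgeR quasi-likelihood test).

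Gm15441 (ENSMUSG00000074398.7, chromosome 3, 96463071 to 96474117, minus strand) shares 30.1% of its exon bases with Txnip. Counting used no strand and left out reads on bases that belong to exons of both genes, so its reads come from the other 3′ or exonic parts. Txnip was at 47.7 ± 6.32 CPM (SD, n = 3) in DIO and 48.3 ± 4.73 CPM (SD, n = 5) in DIO + DHA, a log2 fold change of 0.07 (adjusted p = 0.758 in the edgeR test). Of 19 tested genes on a list of PPAR alpha targets, 14 were higher in DIO + DHA and 0 lower, where 7.89% of all genes tested were higher and 7.28% lower. Among the 14, Pdk4, which inhibits pyruvate dehydrogenase, changed by 2.27 on the log2 scale, the acyl-CoA thioesterase Acot1 by 1.32 and the fatty acid omega-hydroxylase Cyp4a10 by 0.92. Cpt1a (0.07) and Angptl4 (0.07) did not pass. The part of PPAR alpha in the Gm15441 level was not tested.

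Other lncRNAs rose by over 1 on the log2 scale. Gm3734, on chromosome 18, was at 2.32, 1.45 and 1.23 CPM in the DIO libraries and at 10.8, 8.80, 9.84, 10.4 and 9.86 CPM in the DIO + DHA libraries (log2 fold change 2.75, standard error 0.29). ENSMUSG00000121497, which runs through a stretch of chromosome 6 with the Mug genes and shares 11.1% of its exon bases with the pseudogene Mug7-ps, was at 8.12, 8.15 and 9.14 CPM against 20.9, 19.98, 25.6, 22.95 and 23.1 CPM (1.40, standard error 0.17). Neither had overlapping groups. Gm32800, on chromosome 2, was at 17.4, 11.6 and 16.0 CPM against 27.2, 29.5, 36.2, 31.0 and 30.01 CPM (1.10, standard error 0.15), while its nearest protein-coding gene, the phosphatase gene Ptpn1 at 84.2 kb, fell by 0.61. Hectd2os and Gm31583 were the remaining ones, at 1.64 and 1.42.

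Erdr1y was read from a row on chromosome Y although the mice are female. It was at 29.0, 19.4 and 15.5 CPM in the DIO libraries and 34.6, 37.6, 39.7, 32.4 and 36.7 CPM in the DIO + DHA libraries, without overlap (log2 fold change 0.91, standard error 0.14). The Y-linked genes Ddx3y, Uty, Eif2s3y and Kdm5d had 0 counts in all 8 libraries. From which copy of the gene, which is annotated on both sex chromosomes, the reads came was not tested.

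Among the lncRNAs with lower levels, AW112010 stood out by its abundance. It is known from activated macrophages and T cells, in which interferon and bacterial products induce it. Its levels were 539.5, 529 and 479 CPM in the DIO libraries and 263, 258, 261, 262 and 286 CPM in the DIO + DHA libraries. No DIO + DHA library came near the DIO range. The means were 516 ± 32.0 CPM (SD, n = 3) and 266 ± 11.5 CPM (SD, n = 5), and AW112010 (ENSMUSG00000075010.7, chromosome 19, 11021557 to 11033245, minus strand) fell by 0.93 on the log2 scale (standard error 0.07, adjusted p = 6.87e-17, edgeR quasi-likelihood F test, Benjamini-Hochberg).

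Most macrophage markers and part of the lymphocyte markers were lower in the same libraries. Of 18 tested macrophage and Kupffer cell markers, 15 fell, among them the macrophage protein gene Cd5l by 1.12, the antigen-presentation gene Cd74 by 1.24 and the Kupffer cell lectin Clec4f by 0.72 on the log2 scale, and 1 rose. Of 13 tested T, NK and B cell markers, 7 fell and 0 rose, and the B lineage genes Cd79b, Jchain, Ighm and Igkc did not pass. The summed CPM of the macrophage markers in DIO + DHA stood at 0.533 of the DIO mean, and that of the T, NK and B cell markers at 0.696. The part of these cells in the AW112010 level was not tested. Ms4a8a, the nearest protein-coding gene at 11.6 kb, fell by 2.06 from a low level (3.25 to 0.642 CPM).

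Malat1, the most abundant of the 206 genes, resides in nuclear speckles. It was at 870.2, 855 and 1088 CPM in the DIO libraries and at 704, 743, 697, 831 and 589.7 CPM in the DIO + DHA libraries. The highest DIO + DHA library lay just under the lowest DIO library, and both groups were widely spread. Malat1 (ENSMUSG00000092341.6, chromosome 19, 5845717 to 5852706) fell by 0.38 on the log2 scale (standard error 0.09, adjusted p = 0.00491, Benjamini-Hochberg adjusted edgeR quasi-likelihood test). Most Malat1 is known to end in a triple helix and not in a poly(A) tail, and what share of it a poly(A)-primed library records was not measured.

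Neat1, its neighbour on chromosome 19, did not pass the test. Its levels were 174, 173 and 179.6 CPM in the DIO libraries and 169, 166, 180.2, 174 and 187 CPM in the DIO + DHA libraries, and the ranges lay within one another. The log2 fold change was 0.02 (standard error 0.08, adjusted p = 0.915 in the edgeR test). The Neat1 row covers 21163 exon bases, and its last 50 hold neither AATAAA nor ATTAAA. Counts were made per gene, so from which Neat1 transcript the reads came was not tested. The sign turned with scaling by library totals (-0.0031), so no direction can be given. Of 11 tested genes for paraspeckle proteins, which bind Neat1, Pspc1 was higher (log2 fold change 0.87), though not with DESeq2, and the other 10 did not pass.

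Other abundant lncRNAs were lower as well. The row 9030619P08Rik (ENSMUSG00000121494.1) was at 111, 116 and 113 CPM in the DIO libraries and 70.9, 75.9, 73.1, 62.5 and 79.7 CPM in the DIO + DHA libraries, and fell by 0.63 on the log2 scale (standard error 0.09). It shares 24.2% of its exon bases with a second gene of the same symbol. BC024386 was at 126, 129 and 128 CPM against 92.5, 99.2, 92.8, 90.4 and 90.5 CPM, a fall of 0.44, with very little spread in either group. Its nearest protein-coding gene, Cox8b, a cytochrome oxidase subunit of muscle and brown fat at 5.55 kb, changed by 4.76 in the other direction. Gm13775, within the cluster of Mup genes that encode major urinary proteins, fell by 0.55, and as copies in that cluster are nearly identical, reads that align to more than 1 place were not counted.

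The microRNA host Mir22hg was at 42.3, 40.5 and 43.8 CPM in the DIO libraries and at 28.1, 32.2, 33.4, 33.6 and 24.6 CPM in the DIO + DHA libraries. The groups did not overlap, and Mir22hg fell by 0.47 on the log2 scale (standard error 0.11, adjusted p = 0.00178, edgeR quasi-likelihood F test, Benjamini-Hochberg). Of the 3 microRNA hosts among the 206 genes, H19 was higher, Mir22hg lower, and Dleu2, the host of Mir16-1, did not pass (log2 fold change -0.13). Mature microRNAs were not measured in these libraries.

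Besides AW112010, the largest relative decreases were in genes of lower level. Gm56860 was at 11.6, 11.6 and 11.8 CPM in the DIO libraries and at 6.10, 5.76, 2.81, 5.21 and 4.83 CPM in the DIO + DHA libraries, and fell by 1.18 on the log2 scale (standard error 0.21). Gm45051 fell by 1.08 and shares 70.1% of its exon bases with 0610030E20Rik on the opposite strand, a gene that changed by 0.12 and did not pass. Gm15690, antisense to the serine dehydratase gene Sds and sharing 32.6% of its exon bases with it, was at 11.02, 8.87 and 8.44 CPM against 3.35, 5.42, 5.62, 5.44 and 3.99 CPM, a fall of 0.95. Sds fell too, by 0.66, and because counting was unstranded, reads of the pair outside the shared bases were assigned by position only. 2900005J15Rik fell by 0.85, and without DIO replicate 1, its highest library, the value was -0.67 and did not pass (adjusted p = 0.115 in the edgeR test), nor did it pass with DESeq2 on all libraries (-0.91, adjusted p = 0.0541). Gm46133 and Gm13021, which share no exon bases, fell by 0.78 and 0.79.

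Of the 11 snoRNA hosts among the 206 genes, 0 had an adjusted p under 0.05 with edgeR, DESeq2 or limma-voom, against 15.2% of all genes tested, a share at which a list of this size would hold few calls, 4 had an unadjusted p under 0.05 in the edgeR fit, all with positive values, and the median log2 fold change was 0.03. Gas5, the most abundant, was at 137, 122 and 126 CPM against 141, 138, 140.2, 137 and 162 CPM (log2 fold change 0.20, adjusted p = 0.0912). Zfas1 had no overlap between groups, at 13.3, 16.5 and 16.0 CPM against 21.8, 19.3, 22.1, 17.3 and 22.9 CPM, and a log2 fold change of 0.42 (adjusted p = 0.0514 in the edgeR test). Without DIO + DHA replicate 5 Zfas1 passed, at 0.48 (adjusted p = 0.0242).

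Snhg12 rested on 1 library. It was at 13.9, 18.6 and 12.7 CPM in the DIO libraries and at 31.1, 8.80, 8.08, 6.39 and 7.76 CPM in the DIO + DHA libraries. DIO + DHA replicate 1 was thus above every DIO library, and the other four were below every one. With all libraries the log2 fold change was -0.19 (standard error 0.62, adjusted p = 0.902), and without DIO + DHA replicate 1 it was -0.98 (adjusted p = 0.000236 in the edgeR test).

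Most lncRNAs on the nuclear, X-inactivation and broadly expressed lists did not pass. Xist was at 103, 98.5 and 85.9 CPM in the DIO libraries and at 92.3, 119.9, 84.7, 129 and 87.5 CPM in the DIO + DHA libraries, with overlapping groups (log2 fold change 0.13, adjusted p = 0.491 in the edgeR test), and Jpx, which activates it, had a log2 fold change of -0.06. Of the 4 nuclear lncRNAs (Malat1, Neat1, Xist and Firre), Malat1 passed the test. Firre was at 11.02, 11.04 and 9.14 CPM against 6.30, 9.48, 5.27, 6.86 and 7.76 CPM, a log2 fold change of -0.51 (adjusted p = 0.0902 in the edgeR test), and without DIO + DHA replicate 2 it passed, at -0.60 (adjusted p = 0.0493). Of the 4 broadly expressed ones, Norad, Oip5os1, Gas5 and Epb41l4aos, 0 passed with edgeR, DESeq2 or limma-voom and 1 had an unadjusted p under 0.05 with edgeR. H19 was the 1 imprinted lncRNA among the 206 genes. Below the 5 CPM level, the imprinted Meg3 was also higher, at 0.177 CPM in DIO and 2.35 CPM in DIO + DHA. Its log2 fold change was 3.26 (adjusted p = 0.00011 in the edgeR test), while Kcnq1ot1, Airn and Peg13 did not pass. Of 5 lncRNAs reported in liver lipid metabolism, Gm15441 and H19 were higher and Malat1 and Mir22hg lower, beside 23.8% called among the 206 lncRNAs and 15.2% among all genes tested.

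Since reads on bases shared by exons of different genes were left out of the counts, the overlap of the lncRNAs with their neighbours was measured. Exon bases were shared by 111 of the 206 lncRNAs (53.9%), 89 of them with a gene on the opposite strand and 43 with one on the same strand. The share was 35.5% of the protein-coding genes of at least 5 CPM and 40.3% of the lncRNAs with a count below that level. The overlap was mostly small, with 6 lncRNAs sharing at least 50% of their exon bases. A430018G15Rik shared the most, 81.5%, with Cacnb4, followed by Gm45051 (70.1%), Gm57061 (61.8%, with Gnat1) and Gm16548 (57.1%, with Selp and F5). Gm57061 and A430018G15Rik had no overlap between groups but did not pass the test, with log2 fold changes of -0.35 and -0.42.

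Lower shares of calls were seen among genes with shared bases. Of the 111 lncRNAs that share exon bases, 21 were called (18.9%), and of the 95 that share none, 28 (29.5%). For 73 lncRNAs the nearest protein-coding gene neither overlapped them, nor started head to head within 1 kb, nor ended within 5 kb upstream on the same strand, although for some of them, such as Snhg12 (0.312 kb from Trnau1ap), it was close by, and of these 73, 18 were higher and 8 lower (35.6%). Of the 27 that start head to head within 1 kb of a protein-coding gene, 3 were higher and 3 lower (22.2%), and of the 64 that share exon bases with one on the opposite strand, 4 were higher and 5 lower (14.1%). The whole set stood at 23.8%. The groups also differed in level, with a median of 12.7 CPM for the 73 and 10.1 CPM for the 64. H19, 3930402G23Rik, B930025P03Rik and Gm3734, which had DIO means below 5 CPM, are all among the 73. What part level and the level rule have in these shares was not tested. A single exon block made up 26.2% of the lncRNAs and 2.10% of the protein-coding genes of at least 5 CPM.

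Finally, each lncRNA was set beside its nearest protein-coding gene. For 169 of the 206 this gene was tested, and the log2 fold changes of the pairs had a Pearson r of 0.17 and a Spearman rho of 0.31, as a description across pairs that share libraries and in part the neighbour. Beside the 41 called lncRNAs, 15 neighbours were called (36.6%), and beside the 128 others 22 were (17.2%). The pair changed in the same direction in 11 of the 15, of which 4 had Irs2 as their neighbour, and in opposite directions in 4, Gm32800 with Ptpn1, BC024386 with Cox8b, 1110020A21Rik with Ppm1b and 1300002E11Rik with Map3k13. The 4 beside Irs2 include 3930402G23Rik and B930025P03Rik, which met the level rule through the DIO + DHA libraries. Same-direction pairs included A730063M14Rik with Tspan31 (0.85 and 0.66), Gm17753 with the linker histone gene H1f0 (0.79 and 0.65) and, among the lower, Gm8883 with the fibronectin gene Fn1 (-0.32 and -0.42).

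**Figure D4:**
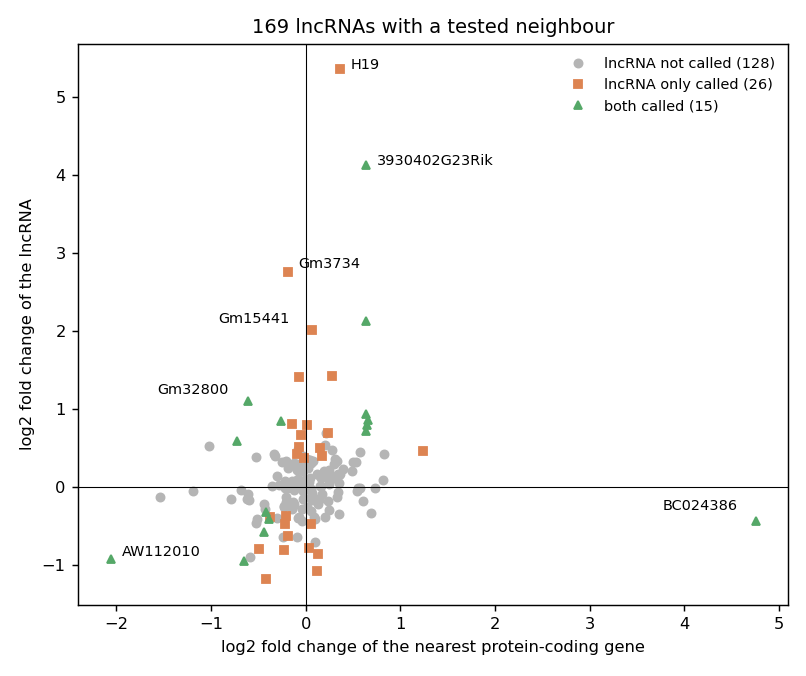
Log2 fold change of 169 lncRNAs (vertical axis) against that of their nearest protein-coding gene (horizontal axis), DIO + DHA over DIO, 1 point per lncRNA. Grey circles are the 128 lncRNAs not called, orange squares the 26 called beside a gene that was not, and green triangles the 15 pairs in which both were called, among them AW112010 at the lower left and BC024386 at the far right.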

How the data were processed

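Liver poly(A) RNA of 8 mice, 3 DIO and 5 DIO + DHA, was sequenced by an adapted SCRB-seq protocol with 1 library per mouse, and groups were taken from the sample labels, which give 1 batch. The authors checked the reads with FastQC 0.11.8, trimmed and aligned them to GRCm39 with STAR 2.7.9a and counted reads on the exons of GENCODE mouse release 33 genes with featureCounts 1.6.0. What was deposited are raw counts, 1 whole number for each gene and library. The counting command set no strand, multi-mapping or overlap option, so it used unique alignments, ignored strand and left out reads on exons of more than 1 gene. The sources do not state if reads with the same molecular identifier were merged, and the counting interval covers counting error only.

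Gene types came from GENCODE release 39 for 203 of the 206 genes and from the study's table for 3, and 4 genes of at least 5 CPM had no type. The study's table held 48 of the 206 genes. 3930402G23Rik, B930025P03Rik and, below 5 CPM, Gm45044 took their type from it. Their place among the lncRNAs thus rested on being in that table, and genes in neither source could not enter the set. Genes with counts under 5 in over 50% of the libraries in both groups were dropped, which kept 12412 genes and all 206. Scaling was by TMM, and the robust quasi-likelihood test came from edgeR 4.0.16 (R 4.3.3), Benjamini-Hochberg adjusted over all tested genes at 0.05, and the scripts were tested on simulated data. Alternatives used DESeq2 1.42.0, limma 3.58.1 (voom), other filters, thresholds and scalings, the replicate number as a block and each library left out. The named genes are those on lists by role, the 8 higher and 8 lower called genes of smallest p without overlap, the 5 of each with the largest change, the 5 most abundant, the 2 nearest the level rule and the 4 with the most shared exon bases. A few called genes outside this rule were named after their values were seen. The set and the lists were chosen with earlier results of these data known. Exon overlap was computed from the coordinates of the deposited tables and sequences were read from GRCm39. Replicate numbers were not treated as pairs in the main fit. The authors' fold changes and p-values were not used.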

Additional observations from a re-analysis of the deposited data

Results flagged for a closer look

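In the 5 DIO + DHA libraries, 6 of 58 sets of values held 1 library far from the others by Dixon's ratio (critical value 0.71). Chance alone flags about 1 set in 20. Snhg12 was at 31.1 CPM in replicate 1, the others being at 6.39 to 8.80 CPM. In replicate 2, Norad was at 8.47 CPM against 4.02 to 5.04 CPM, Gata6os at 8.13 CPM against 3.51 to 4.496 CPM, and BC024386 at 99.2 CPM against 90.4 to 92.8 CPM. In replicate 6, Gas5 was at 162 CPM against 137 to 141 CPM and AW112010 at 286 CPM against 258 to 263 CPM. AW112010 and BC024386 passed the test without these libraries as well, and Norad, Gata6os and Gas5 did not pass with or without them. Groups of 3 libraries were not examined in this way.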

How the results depend on the processing

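The 47 named lncRNAs were refitted under 834 combinations of gene and setting, of which 808 kept their direction and their side of the threshold, 6 passed the test only there, 6 lost it and 14 changed sign, the latter in genes that did not pass. The number of genes called over all genes was 1883 and fell to 859 at a limma-voom log-odds B above 0 and to 1225 at an adjusted p under 0.01. The numbers of higher and lower lncRNAs (30 and 19) became 16 and 11 at B above 0, 53 and 31 among 680 lncRNAs of at least 1 CPM, 18 higher among 113 of at least 10 CPM, and 18 and 10 among the 95 that share no exon base. Without 1 library they lay between 21 and 30 higher and between 14 and 22 lower, and over all genes between 1432 and 1860. DESeq2's Wald test gave 22 higher and 15 lower, and scaling without genes of other tissues 30 and 19.

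The sign of the log2 fold change turned for Neat1 with library totals (-0.0031). Without 1 library each, values that changed sign ranged from -0.026 to 0.061 for Neat1, -0.21 to 0.25 for Snhg6, -0.047 to 0.14 for Oip5os1, -0.98 to 0.044 for Snhg12, -0.080 to 0.074 for Epb41l4aos, -0.21 to 0.11 for Jpx, -0.15 to 0.024 for Gm67972 and -0.090 to 0.25 for 5033406O09Rik, and the cholangiocyte marker sum from -0.622 to 3.39 CPM. Snhg20, with an adjusted p of 0.0648, passed without DIO + DHA replicate 5 (0.42, adjusted p = 0.0499 in the edgeR test). The cause was not tested. With the replicate number as a block, 1539 genes, 26 higher and 21 lower lncRNAs were called, Firre passed (-0.71), and Snhg6 (0.022) and Epb41l4aos (-0.088) changed sign. Same-numbered libraries did not deviate together (correlations of -0.013, -0.013 and -0.011). The counts thus gave no sign of pairing by number, which so few pairs cannot exclude. Depth limits what can be seen, since the median standard error was 0.21 on the log2 scale below 20 CPM.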

Other observations

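Clock genes, a list written beside those of lncRNAs, were mostly lower in DIO + DHA. Of 15 tested, 9 fell, where 7.28% of all genes tested were lower, among them Ciart by 2.26, Per2 by 1.02 and Tef by 0.66 on the log2 scale, and Nfil3 rose by 0.52. None of the 206 lncRNAs is on that list. The livers were taken after an overnight fast, but the hour was not given in the sources used here.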
